A study of Mus musculus with 6 samples.

Results

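Microexons are very short internal exons, and the ones described here are the skippable single exons of 30 bases or less. An exon was taken when the deposited splicing tables listed, for the same locus, chromosome, start and end, both an event that includes it and an event that skips it. The choice used length and listing only. Listing required a value above 0 for each form in at least 1 tumour, and no other level was set. It gave 283 microexons, 1.83% of the 15447 skippable single exons listed in both forms. The other 15164 exons, all longer than 30 bases, served for comparison.

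The tables came from subcutaneous tumours of A375, an established human melanoma cell line, grown in BALB/c nude mice, which lack T cells. One group received vehicle and the other ZLD1039, an inhibitor of the histone methyltransferase EZH2, at 100 mg/kg by oral gavage once a day for 27 days. Each group had 5 mice and 3 sequenced tumours, called here vehicle tumours 1 to 3 and ZLD1039 tumours 1 to 3. All tumours derive from 1 cell line, the ages of the mice were not given, and the labels do not state that each tumour came from a different mouse. P-values therefore measure only the spread between these tumours, which may in part be technical. No source used here says whether RNA of mouse cells in the tumours was set apart. The host genes carry identifiers without symbols, so melanoma markers could not be matched and the labelled cell type was not checked. Positions are those of the deposited tables. The mouse build mm10 is named in the submitters' processing notes, but the identifiers carry the prefix ENSG and positions on chromosome 1 reach 249 Mb, so that build was not used and neither exon sequence nor coding position was read.

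An exon shorter than the stretch of pre-mRNA that splicing factors normally bridge is hard for the spliceosome to define, and microexons rely on enhancer sequences in the neighbouring introns. In neurons, dedicated splicing factors such as SRRM4 promote their inclusion, and many microexons there add a few amino acids to the surface of a protein domain. An exon whose length is a multiple of 3 can be added or dropped without shifting the reading frame, whereas any other length shifts it where the exon lies in coding sequence.

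Each event carried an FPKM value, fragments per kilobase of transcript scaled to the library. Inclusion was the summed FPKM of the including events as a percentage of including plus skipping events, computed in each tumour. Of the 283 microexons, 270, 266 and 267 had a value above 0 in vehicle tumours 1 to 3, and 270, 256 and 272 in ZLD1039 tumours 1 to 3. ZLD1039 tumour 2 listed the fewest. A microexon was called measured when it was above 0 in all 6 tumours and averaged at least 1 FPKM over both forms, and 224 were. The other 59 comprised 48 without any value in at least 1 tumour and 11 averaging under 1 FPKM. FPKM values carry no read numbers, so the depth behind each value is unknown and no counting interval could be given. An event that a table did not list was taken as 0 and need not be silent.

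Short exons were more often listed in the skipped form alone than longer ones were. Among short exons listed in either form with at least 1 FPKM and a value in all 6 tumours, 271 of 509 (53.2%) appeared only as skipped and 14 (2.75%) only as included. Among longer exons the corresponding shares were 20.7% and 12.8% of 17554. Of the 271 short exons listed only as skipped, 194 (71.6%) had a length that is a multiple of 3, against 37.1% of the longer ones. These shares describe the listing and were not tested. The shortest of the 271 spanned 1 base, against 6 bases among microexons listed in both forms, and whether all 271 are real exons was not checked.

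Microexons had a length that is a multiple of 3 more often than longer skippable exons did. Since coding position was not read, keeping or shifting the frame refers here to length alone. Of all 283, 182 (64.3%) were a multiple of 3 in length, and of the 224 measured, 141 (62.9%). The share among measured exons was 45.8% at 31 to 50 bases, 44.3% at 51 to 100 bases, 40.6% at over 100 and up to 200 bases and 42.2% above 200 bases. The shortest microexon listed in both forms had 6 bases, the shortest measured one 12, and the median was 24. Lengths of 27 bases (36 measured microexons), 24 bases (35) and 30 bases (30) were the most frequent, and the most frequent length that is no multiple of 3 was 23 bases (16).

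**Figure D1:**
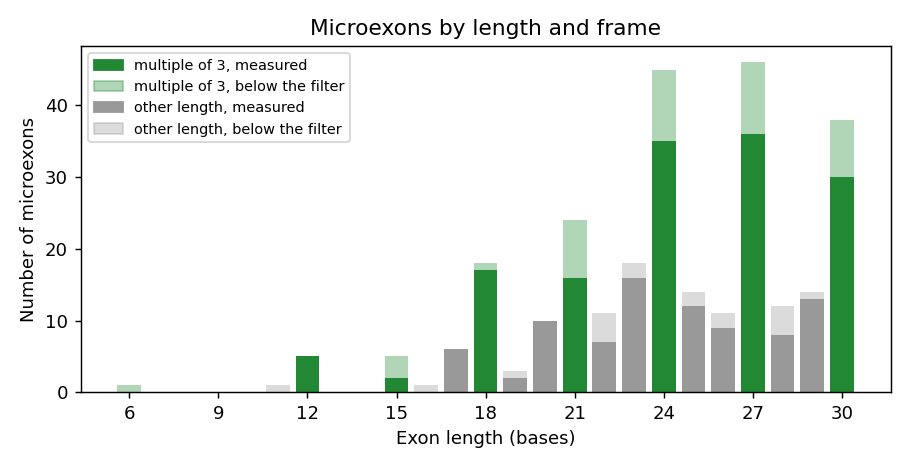
Number of microexons (vertical axis) at each exon length in bases (horizontal axis), with multiples of 3 in green and other lengths in grey; solid bars are measured and pale bars fell below the filter. The tallest bars stand at 24, 27 and 30 bases, and 182 of the 283 microexons are a multiple of 3 long.

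The 283 microexons lay in 270 loci, of which 257 held 1 microexon and 13 held 2. In 5 of those 13 loci, the pair shared a start or an end, so that the same splice site was joined to alternative partners. Chromosome 1 held 31 microexons and chromosomes 11 and 17 held 22 each, and 153 of the 283 were on the plus strand. The host loci were well expressed, with a median of 11.5 FPKM against 8.60 for loci with a longer skippable exon and 4.12 for all 15234 loci listed. A host locus needs a value for both forms, so the contrast with all loci is in part set by the choice. The introns beside measured microexons had medians of 1661.5 bases upstream and 1367.5 bases downstream, against 1965 and 1907 beside longer exons. The shorter flanks belonged mainly to microexons that shift the frame, with medians of 1336 and 1071 bases against 1811 and 1627 for those that keep it. A shared end with another skippable exon was found at 45 measured microexons (20.1%) and at 21.5% of longer exons.

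In these tumours microexons were mostly skipped. Over the 224 measured microexons, mean inclusion was 40.8%, 39.1% and 40.1% in vehicle tumours 1 to 3 and 38.8%, 41.4% and 39.9% in ZLD1039 tumours 1 to 3. Longer exons averaged 57.8% over the 6 tumours (SD 0.28), and microexons lay below them in each tumour, at -17.0, -18.3, -17.8, -19.1, -16.03 and -18.3 points in the same order. The mean gap was -17.75 points ± 1.09 (SD, n = 6), below 0 in 6 of 6 tumours, and the two-sided exact sign-flip permutation test gave p = 0.03125, the smallest it allows. The tumours share the same exons, so this test covers the spread between tumours and not the choice of exons. The gap was also present among exons of like abundance, with -15.2 points at 1 to 5 FPKM, -22.7 at 5 to 20 FPKM and -11.9 at 20 FPKM or more, again below 0 in 6 of 6 tumours in each class.

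The gap to longer exons was seen at both ends of the scale. The median microexon was included at 23.8%, the median longer exon at 79.5%. Both medians cover unlike lengths. The median was 37.8% for the 784 longer exons of 31 to 50 bases, and 77.7% for the 30 in-frame microexons of 28 to 30 bases. A mean inclusion under 10% was found for 85 microexons (37.9%) and for 28.4% of longer exons, and 90% or more for 55 microexons (24.6%) and 42.3% of longer exons. In every tumour, 27 microexons (12.1%) stayed under 1% and 14 stayed over 99%. The share of longer exons under 1% in every tumour was 7.95%.

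**Figure D2:**
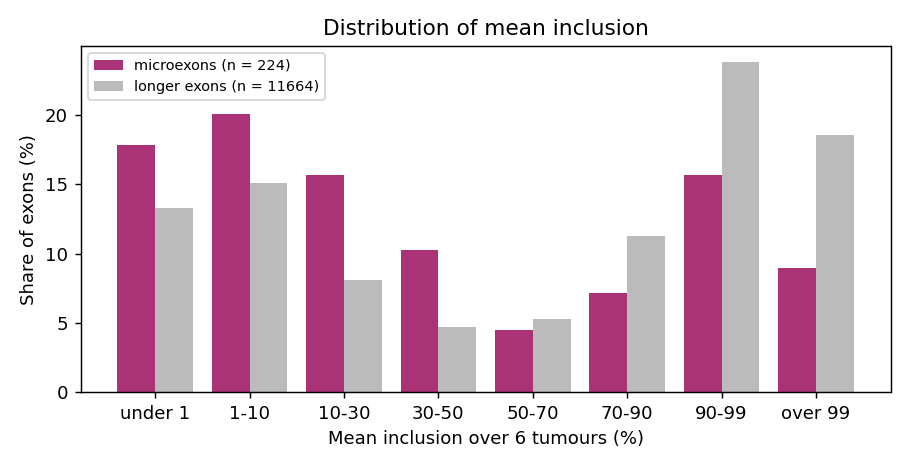
Share of measured exons (vertical axis, percent) in each class of mean inclusion over 6 tumours (horizontal axis, percent), for 224 microexons (purple) and 11664 longer exons (grey). Microexons are over-represented under 50% and under-represented at 70% and above, with 17.9% under 1% and 8.93% over 99% against 13.3% and 18.5% of longer exons.

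With both frames pooled, inclusion of microexons was higher at 25 to 27 and 28 to 30 bases than in the shorter classes. Mean inclusion over the 6 tumours was 32.7% for 30 microexons of 12 to 18 bases, 31.2% for 86 of 19 to 24 bases, 46.3% for 57 of 25 to 27 bases and 52.2% for 51 of 28 to 30 bases. Among longer exons it was 46.4% at 31 to 50 bases, 56.9% at 51 to 100 bases, 60.8% at over 100 and up to 200 bases and 55.1% above 200 bases. Split by frame, in-frame microexons averaged 28.7% at 12 to 18 bases, 21.6% at 19 to 24, 44.7% at 25 to 27 and 56.6% at 28 to 30. Microexons that shift the frame showed no such rise. They averaged 49.0% (6 microexons), 45.1%, 48.9% and 46.1% in the same order of classes. The limit of 30 bases is a convention. The 30 measured microexons of exactly 30 bases averaged 56.6%, and the 21 exons of 31 bases, just outside, 47.4%.

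The lowest inclusion was found among the short microexons that keep the frame. The 75 in-frame microexons of 24 bases or less averaged 27.9%, 21.8% and 23.0% in vehicle tumours 1 to 3 and 20.7%, 23.7% and 26.0% in ZLD1039 tumours 1 to 3. Of these, 37 (49.3%) had a mean under 10% and 6 had 90% or more. At 30 bases, in contrast, 7 of 30 were under 10% and 12 at 90% or more. The 35 microexons of 19 to 24 bases that shift the frame averaged 45.1%, and the 51 of the same length that keep it 21.6%.

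Pooled over all lengths, the 141 in-frame microexons were included at 36.5%, 34.4% and 35.6% in vehicle tumours 1 to 3 and at 34.9%, 37.6% and 37.9% in ZLD1039 tumours 1 to 3. The 83 other microexons were included at 48.0%, 47.2% and 47.8%, and at 45.5%, 48.0% and 43.2%. In-frame microexons lay lower in 6 of 6 tumours, by -10.5 points ± 2.69 (SD, n = 6; two-sided exact sign-flip permutation test, p = 0.03125). Longer exons, pooled over all lengths, showed the opposite order, with in-frame exons 2.65 points higher in 6 of 6 tumours. The nearest class, of 31 to 50 bases, had the same order as the pooled microexons in every tumour. There 359 in-frame exons averaged 44.4% and 425 others 48.2%. The difference by frame of all microexons minus that of all longer exons was -13.1 points ± 2.81 (SD, n = 6, two-sided exact sign-flip permutation test, p = 0.03125). The values per tumour by frame were planned, but both sign-flip tests on them were added after the values had been seen and, as above, cover only the spread between tumours. When each microexon was weighted by its FPKM, the difference by frame was -6.25 points with p = 0.375 in the same exact permutation test, which no longer passed 0.05. With a limit of 27 bases it was -16.2 points. At 28 to 30 bases the order was reversed, with a mean of 56.6% for 30 in-frame microexons and 46.1% for 21 others. In that class in-frame microexons lay higher in every tumour except vehicle tumour 2. Pooled over lengths, 27 of 141 in-frame microexons (19.1%) and 28 of 83 others (33.7%) had 90% or more, whereas the shares under 10% were 37.6% and 38.6%. The pooled in-frame share under 10% covers unlike lengths, with 49.3% at 24 bases or less but 7 of 30 at 30 bases.

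**Figure D3:**
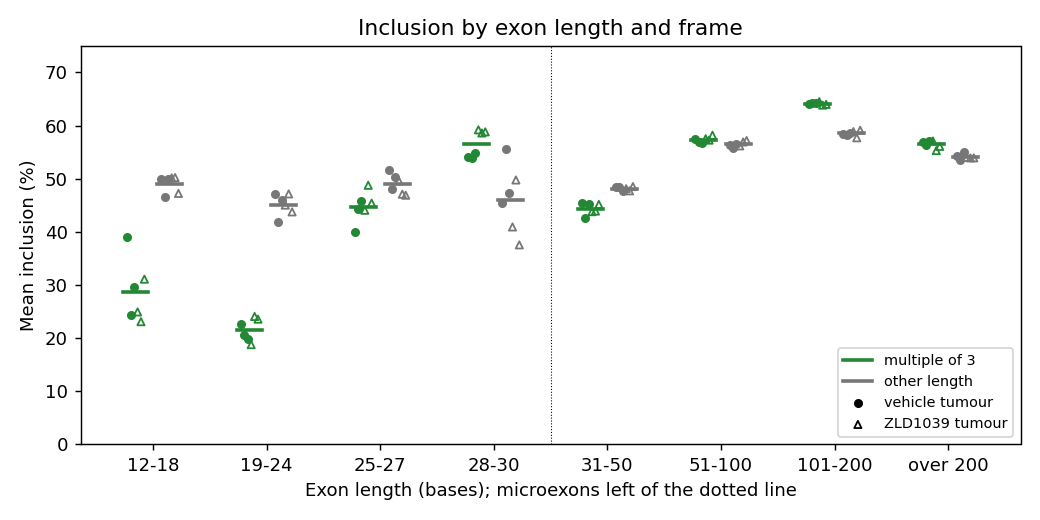
Mean inclusion in percent (vertical axis) by class of exon length in bases (horizontal axis), for multiples of 3 (green) and other lengths (grey); filled circles are vehicle tumours, open triangles ZLD1039 tumours, and bars the mean of 6. In-frame microexons of 19 to 24 bases stand lowest at 21.6%, and at over 100 and up to 200 bases in-frame exons stand above the others at 64.1% against 58.5%. In-frame exons also stand above the others at 28 to 30 bases (56.6% against 46.1%). At 31 to 50 bases they stand below (44.4% against 48.2%).

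Single microexons differed widely between tumours. Among the 164 microexons with a mean inclusion between 1% and 99%, the median SD over the 6 tumours was 11.5 points and the median range 28.7 points, against 9.35 and 23.2 for longer exons. A range over 50 points was found for 55 of the 164 (33.5%) and for 23.9% of longer exons. The median SD was larger than that of longer exons in each class of abundance, at 18.99 against 14.0 points for 1 to 5 FPKM, 9.24 against 7.68 for 5 to 20 FPKM and 8.34 against 5.81 at 20 FPKM or more. Of 52 microexons with a mean inclusion of 20% to 80%, 39 (75%) had a range over 50 points and 2 (3.85%) a range under 15 points. Among longer exons of the same mean inclusion the shares were 64.7% and 2.87%, and these shares were not tested against each other.

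At 19 of the 224 measured microexons (8.48%), inclusion was under 10% in at least 1 tumour and over 90% in another, and 5.26% of longer exons did the same. Of the 19, 14 keep the frame. ZLD1039 tumour 2 was over 90% at 8 of them and vehicle tumour 1 at 6, against 2 to 4 in each other tumour. Total FPKM of both forms was also less even at these 19, with a median highest value 4.49 times the lowest, against 2.15 times at the other measured microexons. The groups did not overlap at 1 of the 19. An example is the 12-base microexon at chr14:53128011-53128022 (minus strand). It was at 0% in all vehicle tumours and in ZLD1039 tumour 2, and at 100% in ZLD1039 tumours 1 and 3. Its including event had 19.7 and 21.8 FPKM in those 2 tumours, and its skipping event 19.5 to 23.9 FPKM in the other 4. Another 12-base microexon, at chr9:131010203-131010214 (plus strand), was included at 84.6%, 65.7% and 0% in vehicle tumours 1 to 3 and at 0%, 0% and 100% in ZLD1039 tumours 1 to 3. This exon shares a start or an end with another skippable exon of its locus, whose including events were not counted here. In both cases tumours of the same group stood at opposite ends. The 27-base microexon at chr3:168825714-168825740 (minus strand), a low one at 1.21 FPKM, had 4.61%, 0% and 100% in vehicle and 0%, 100% and 38.2% in ZLD1039 tumours.

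A few microexons were steady. The 27-base microexon at chr14:65568264-65568290 (minus strand), chosen after its values were seen, had the smallest SD among those of 20% to 80%. Its inclusion was 54.6%, 56.1% and 55.8% in vehicle tumours 1 to 3 and 54.5%, 58.3% and 60.2% in ZLD1039 tumours 1 to 3. Both forms were present in every tumour, with 8.54 to 12.8 FPKM with the exon and 6.97 to 10.1 FPKM without it. The 27-base microexon at chr6:86248556-86248582 (minus strand), chosen likewise, had 21.0%, 28.9% and 15.6%, and 19.6%, 29.1% and 21.9%. The groups overlapped at both.

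The 10 measured microexons of highest FPKM covered the whole scale of inclusion. The most abundant one, of 22 bases at chr10:79799962-79799983 (plus strand), averaged 1442 FPKM over both forms. It was included at 42.5%, 0.53% and 17.0% in vehicle tumours 1 to 3 and at 42.0%, 0.40% and 3.72% in ZLD1039 tumours 1 to 3. High and low tumours thus occurred in both groups, and the form without the exon was the larger in all 6. The 18-base microexon at chr10:79797723-79797740, in the same locus, was listed as included only in vehicle tumour 2, at 15.9%. The FPKM of its skipping form equals that of the including form of the 22-base exon in each tumour, for example 595 in vehicle tumour 1 and 7.06 in vehicle tumour 2, so these values describe the same transcripts. Inclusion weighted by FPKM over all measured microexons ranged from 32.9% to 41.5% with this locus and from 44.1% to 48.2% without it.

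Several abundant microexons were near one end in every tumour. The 17-base microexon at chr22:38074383-38074399 (plus strand) was skipped, with 343 to 444 FPKM without it and 0.038 FPKM with it in vehicle tumour 3 alone. The 24-base microexon at chr3:53271813-53271836 (minus strand) ranged from 0% to 2.72%. At the other end stood the 25-base microexon at chr5:135398352-135398376 (plus strand), at 99.9% to 99.97%, and the 26-base one at chr14:21731470-21731495 (minus strand), at 89.0% to 95.3%. The 20-base microexon at chr12:76446871-76446890 (minus strand) was at 89.99% in vehicle tumour 1 and at 100% in the other 5.

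In 1 abundant locus a pair of microexons shared their end on chromosome 12. The 23-base form at chr12:56510973-56510995 (plus strand) was included at 98.8% to 99.5% in all 6 tumours, with 46.3 to 171 FPKM. The 18-base form at chr12:56510978-56510995, which starts 5 bases later, was included at 98.99% in vehicle tumour 1 and 99.3% in ZLD1039 tumour 2 and was not listed as included in the other 4. Its SD of 51.2 points is among the largest, yet its skipping form never exceeded 1.04 FPKM.

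The remaining 2 abundant microexons differed between tumours of the same group. The 24-base microexon at chrX:153585619-153585642 (minus strand) was included at 89.8%, 41.4% and 34.3% in vehicle tumours 1 to 3 and at 47.1%, 36.3% and 92.0% in ZLD1039 tumours 1 to 3. One tumour of each group was thus high. The 30-base microexon at chr12:27827125-27827154 (plus strand) was at 92.9%, 53.1% and 99.8% in vehicle tumours 1 to 3 and between 99.6% and 99.7% in the ZLD1039 tumours, so it varied in the vehicle group alone.

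**Figure D4:**
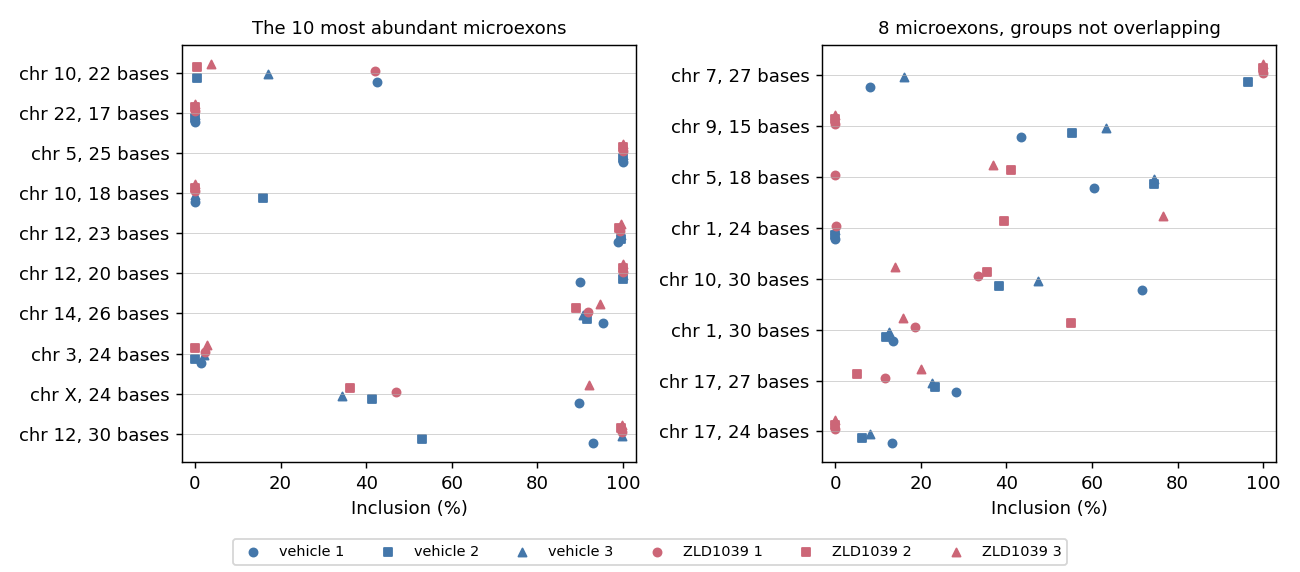
Inclusion in percent (horizontal axes) in each of the 6 tumours for the 10 microexons of highest FPKM (left) and for the 8 with the largest difference among those whose groups do not overlap (right), labelled by chromosome and length. Blue symbols are vehicle tumours and red symbols ZLD1039 tumours; on the left the 24-base exon of chromosome X spreads from 34.3% to 92.0% with both groups mixed, and on the right the choice itself keeps the groups apart.

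The design asks whether EZH2 inhibition went with a change in microexon splicing. Mean inclusion of the 224 measured microexons was 39.99% ± 0.84 (SD, n = 3) in vehicle and 40.04% ± 1.31 (SD, n = 3) in ZLD1039 tumours. The difference was 0.053 points (two-sided exact permutation test, p = 1), where 3 against 3 tumours cannot give less than 0.1. The gap to longer exons differed between groups by -0.097 points (two-sided exact permutation test, p = 1). By abundance, this group difference was -2.57 points at 1 to 5 FPKM (p = 0.1), 0.136 at 5 to 20 FPKM (p = 1) and 2.66 at 20 FPKM or more (p = 0.3), in exact permutation tests not adjusted over the 3 classes. In the lowest class the gap was -13.0, -15.8 and -12.9 points in vehicle and -16.2, -15.9 and -17.2 points in ZLD1039 tumours, without overlap. In-frame minus other microexons was -11.5, -12.8 and -12.2 points in vehicle tumours and -10.6, -10.5 and -5.31 points in ZLD1039 tumours. The groups do not overlap in this value, and the difference of 3.36 points had p = 0.1 (two-sided exact permutation test), the smallest the design allows. This difference depends on the settings: it was 0.888 points (p = 0.7) with a limit of 27 bases, 2.19 (p = 0.6) at 5 FPKM or more and 7.41 (p = 0.6) weighted by FPKM, by the same exact permutation test. Without ZLD1039 tumour 3 it was 1.61 points. Microexons of 30 bases, a class picked after its values were seen, averaged 54.1%, 53.9% and 54.8% in vehicle and 59.2%, 58.6% and 58.8% in ZLD1039 tumours. In a bulk sample, fewer cells of a kind and less of a transcript per cell cannot be told apart.

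No single microexon passed the test for a difference in inclusion. In limma, fitted to 13274 alternative splicing items of all kinds, 0 of the 164 tested microexons had an adjusted p under 0.05, and 0% of all items did. At an unadjusted p under 0.05 there were 3 of 164 microexons (1.83%) and 278 of all items (2.09%). The smallest adjusted p of a microexon was 0.719. Inclusion was higher under ZLD1039 at 76 and lower at 88, with a median difference of -0.58 points against -0.067 over all items. The test had little reach for single exons: the 95% interval of the difference had a median half-width of 22.6 points for microexons and 17.7 points for longer exons. The interval lay within 10 points of 0 at 23 microexons, and at the others larger differences were not excluded by it.

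The groups did not overlap at 12 of the 164 (7.32%). Inclusion was higher under ZLD1039 at 4 of the 164, against 3.35% of all items tested, and lower at 8 of the 164, against 3.77%. These shares were not tested against each other. The 8 with the largest differences are described next without a test of direction, since the choice fixes it.

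The 27-base microexon at chr7:43927389-43927415 (minus strand, ENSG00000106608) was included at 8.20%, 96.5% and 16.01% in vehicle tumours 1 to 3 and at 100% in all 3 ZLD1039 tumours. Vehicle tumour 2 stood close to the ZLD1039 tumours. The difference was 59.8 points with a 95% interval from -1.65 to 121 points in limma (adjusted p = 0.719). The 2 forms together amounted to 5.59 FPKM on average, while the whole locus ranged from 42.6 to 72.3 FPKM, so they made up a small part of its transcripts.

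The 15-base microexon at chr9:132678245-132678259 (minus strand, ENSG00000187239) was included at 43.5%, 55.3% and 63.1% in vehicle tumours 1 to 3 and at 0% in all 3 ZLD1039 tumours. Its including event had 3.74, 4.21 and 3.16 FPKM in vehicle and was not listed in any ZLD1039 tumour, while the skipping event had 4.87, 3.41 and 1.84 FPKM in vehicle and 7.31, 2.54 and 4.35 FPKM in ZLD1039 tumours. The difference in inclusion was -54.0 points, with a 95% interval from -81.2 to -26.7 and an adjusted p of 0.719 in limma. This was the smallest unadjusted p among the microexons, at 0.0026 in limma. The locus as a whole had 8.91, 7.98 and 5.31 FPKM in vehicle and 7.67, 4.71 and 4.81 FPKM in ZLD1039 tumours, which overlap.

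The 18-base microexon at chr5:150490188-150490205 (minus strand, ENSG00000197043) was included at 60.4%, 74.5% and 74.4% in vehicle and at 0.034%, 41.1% and 36.8% in ZLD1039 tumours. ZLD1039 tumour 1 lay far below the other 2 of its group. The difference was -43.8 points with a 95% interval from -94.0 to 6.45 points in limma (adjusted p = 0.719). The form with the exon had 12.05, 28.8 and 28.6 FPKM in vehicle and 0.0046, 8.79 and 5.43 FPKM in ZLD1039 tumours. The form without it overlapped between groups, at 7.90 to 9.89 and 9.31 to 13.4 FPKM.

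The 24-base microexon at chr1:113247722-113247745 (minus strand, ENSG00000155367) was all but absent in vehicle tumours, at 0.023%, 0.043% and 0%, and reached 0.089%, 39.5% and 76.6% in ZLD1039 tumours. The difference of 38.7 points rests on ZLD1039 tumours 2 and 3. The form with the exon had 5.63 and 2.44 FPKM there. The form without it had 24.9, 13.2 and 15.1 FPKM in vehicle and 7.41, 8.62 and 0.745 FPKM in ZLD1039 tumours (adjusted p = 0.859 in limma), so the 76.6% of ZLD1039 tumour 3 stands on a skipping form under 1 FPKM. The values lie in a locus of 29.1 to 67.7 FPKM.

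The other 4 differed less. The 30-base microexon at chr10:75199630-75199659 (minus strand) had 71.7%, 38.2% and 47.4% in vehicle and 33.4%, 35.3% and 14.1% in ZLD1039 tumours. The 30-base microexon at chr1:9816539-9816568 (minus strand) had 13.4%, 11.95% and 12.7%, and 18.7%, 55.1% and 15.9%. In that exon ZLD1039 tumour 2 stood apart and the other 2 lay only a few points above vehicle. The 27-base microexon at chr17:27905980-27906006 (minus strand) had 28.3%, 23.2% and 22.6%, and 11.7%, 5.06% and 19.9%. The 24-base microexon at chr17:79223870-79223893 (minus strand) had 13.2%, 6.18% and 8.18% in vehicle and was not listed as included under ZLD1039. Its including form had only 0.166, 0.044 and 0.529 FPKM in the vehicle tumours. All 8 keep the frame, as do 116 of the 164 tested (70.7%).

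**Figure D5:**
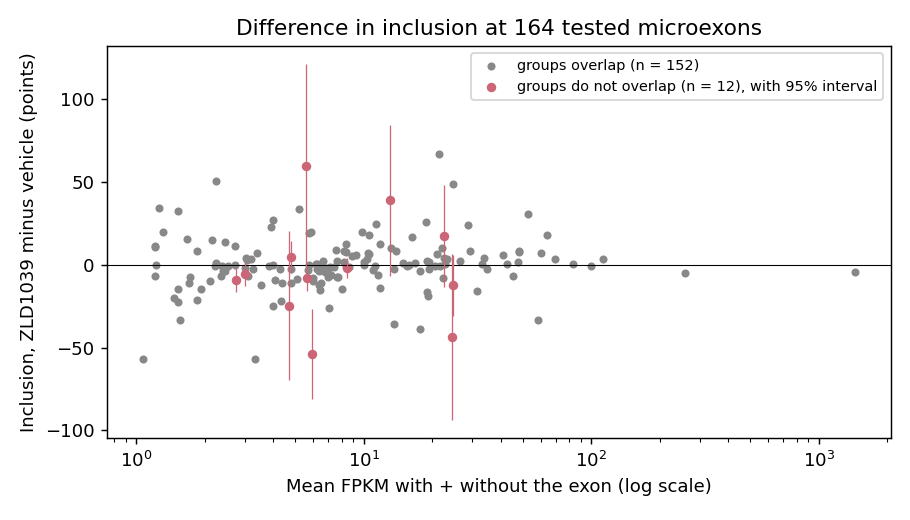
Difference in inclusion, ZLD1039 minus vehicle, in percentage points (vertical axis) against mean FPKM of both forms (horizontal axis, log scale) for the 164 tested microexons; red points are the 12 whose groups do not overlap, with 95% intervals from limma, and grey points the other 152. Differences lie on both sides of 0, with 76 above and 88 below, and large ones occur among grey points as well.

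The 5 shortest tested microexons were mostly skipped. Besides the pair of 12-base exons given above, the one at chr19:10919245-10919256 (plus strand) was included at 29.6% in ZLD1039 tumour 1 and not listed as included in the other 5. The 12-base microexon at chr12:110937340-110937351 (minus strand) had 3.40% in vehicle tumour 2 and 9.53% in ZLD1039 tumour 2. The 15-base microexon at chr20:34142143-34142157 (plus strand) had 38.1% and 9.55% in vehicle tumours 1 and 2, 0.0050% in ZLD1039 tumour 1 and 0% in the rest. None of the 5 had groups that do not overlap. The 6-base microexon at chr12:7075074-7075079 (minus strand), the shortest of all, had no value in vehicle tumour 2 and ZLD1039 tumour 1 and was not measured.

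The events behind the microexons and their host loci gave no call either. On the log2(FPKM + 1) scale, limma was fitted to 85258 splicing events, of which 0.0364% had an adjusted p under 0.05. Among 335 microexon events, 0 did. An unadjusted p under 0.05 was found for 19 of the 335 and for 4026 of the 85258 events, and these shares were not tested against each other. The median log2 difference was 0.04 for 148 including events and -0.01 for 187 skipping events, against 0.01 for all events. The including event of the 15-base microexon of chromosome 9 had the smallest adjusted p, with a log2 difference of -2.23 (SE 0.31; adjusted p = 0.207 in limma), which understates the change of a low value.

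Host loci were tested on the same scale over 10838 loci, of which 0.0185% were called by limma. Of 265 host loci of microexons, 0 were called, and 20 (7.55%) had an unadjusted p under 0.05 against 5.02% of all loci. The difference was above 0 at 139 and below 0 at 126, with a median log2 difference of 0.017 against 0.020 over all loci.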

How the data were processed

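RNA of 6 tumours, 3 per group, was made into SMARTer libraries per the labels' protocols. The authors deposited 1 table per tumour of transcript splicing events with an FPKM value each, per the file headers. HTSeq 0.6.1, bcl2fastq 2.17.1.14 and mm10 appear in the submitters' processing notes. For the aligner, assembler and event program, names were not given in the sources used here. Repeated rows were dropped, which left 124495 to 134376 per tumour. Depth is unknown.

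Events were matched by locus, chromosome, start and end. Microexons had at most 30 bases. Measured exons were above 0 in all 6 tumours with a mean of at least 1 FPKM, and tested ones had a mean share of 1% to 99%. Shares and log2(FPKM + 1) values were fitted with limma 3.58.1 (R 4.3.3, trend, Benjamini-Hochberg over all items), with vehicle and ZLD1039 as the only term. In checks on simulated data, the adjusted test of inclusion found few exons even at large shifts. Values per tumour were compared with exact permutation tests (scipy 1.17.1). Introns are the distances to the neighbouring exons of the events.

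The named microexons are the 10 of highest FPKM, the 8 with the largest difference among tested ones whose groups do not overlap, the 5 shortest tested and the 4 of largest SD; the 2 steady ones were chosen after their values were seen. Besides the chromosome 12 pair, some named microexons share a start or an end with another skippable exon. They are chr1:113247722-113247745, chr3:53271813-53271836, chr7:43927389-43927415, chr9:131010203-131010214, chr10:79799962-79799983, chr12:110937340-110937351 and chr14:21731470-21731495. Events including that other exon were not counted in their inclusion. The microexons, lists and tests were chosen with earlier results of these data known. Lists of documented microexon hosts, of microexon splicing regulators and of cell type markers were not used. The only symbol table at hand was a mouse one, and 0 of 268 host identifiers matched it. Alternatives covered the filters, scale, trend, weighting, scaling, the replicate block and each tumour left out.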

Additional observations from a re-analysis of the deposited data

How the results depend on the processing

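Over the alternatives run, 0 microexons were called for inclusion and 0 host loci for abundance. The 8 named differences in inclusion kept their direction, but choosing groups that do not overlap largely fixes it, so this is no support for them. The difference in mean inclusion between groups is near 0 and turned sign: it was -0.029 points with no minimum FPKM, -0.335 weighted by FPKM, -0.482 for the median over microexons and, in an alternative chosen after seeing the data, -1.07 without exons that share an end. With each tumour left out it ran from -0.640 (without ZLD1039 tumour 2) to 0.668 points. The group difference in the gap to longer exons turned to 1.04 points at 5 FPKM or more and to 0.104 with 1 microexon per locus, the latter chosen after seeing the data, and ran from -0.983 to 0.546 (without ZLD1039 tumour 1) points with each tumour left out. The gap itself ran from -18.1 to -17.5 points and in-frame minus other from -11.5 to -10.01 points, each with an exact permutation p of 0.0625, the smallest that 5 tumours allow. Weighted by FPKM, in-frame minus other was -6.25 points (exact permutation p = 0.375). Without the mean-variance trend, limma called 1 microexon event, the including event of the 15-base exon of chromosome 9 (adjusted p = 0.041, against a range of 0.0995 to 0.903 for the smallest adjusted p among microexon events under the other settings). For the wider tables, calls on inclusion over all items went from 0 to 15 without the trend, 3 on a log2 ratio and 1 with no limit on the share. Calls over all events went from 31 to 60 without the trend, 23 with a pseudocount of 0.1, 7 with no filter and 0 to 5 with a tumour left out, and those over all loci from 2 to 0 or 1. The cause was not tested.

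Replicate numbers are shared by the groups, and the sample titles do not say whether they pair the tumours. Deviations of same-numbered tumours over all items correlated at -0.0043, 0.0072 and -0.011. These values show no visible shared effect but cannot exclude a pairing. With a replicate block, the mean difference was 0.053 points, 3.36 by frame and -0.097 for the gap. Limma called 0 microexons (smallest adjusted p 0.755), 0 microexon events (0.903) and 0 host loci (0.940), and 0 of all events against 31.

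Depth is unknown, and no limit on low inclusion was set. An unlisted event is a 0 of unknown meaning, and with 3 tumours per group single microexons had wide intervals.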
